A study of Homo sapiens with 6 samples.

Results

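The SKM-1 library labelled VEM+BOR was set against 2 untreated libraries, gene by gene, over every gene measured well enough to compare. The cell line, SKM-1, is an established line of human acute myeloid leukaemia (AML). VEM is vemurafenib, an inhibitor of mutant BRAF kinase, and BOR is a second agent, given in the labels by this abbreviation alone. The libraries are 1 of VEM+BOR and 2 untreated out of 6 in the series, and no dose or duration is given in the sources used here. Whether the untreated libraries came from separate cultures is not stated, so each p-value measures no more than how far these libraries differ, possibly for technical reasons. Genes entered with a mean normalised read count of at least 10 over the 3 libraries, which held for 15606 of 24538 genes in the authors' table. Each gene was then placed above both untreated values, below both, or between them.

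Myeloid cells build their granules in an order. Azurophil granule proteins such as myeloperoxidase and elastase are made early. The proteins of later granules, the surface integrins and the oxidase are made as the cell matures. Mature neutrophils and monocytes also release chemokines that call in other leukocytes. In the integrated stress response, kinases that sense amino acid shortage, unfolded protein or haem loss slow translation and raise the transcription factor ATF4, whose targets import and make amino acids and include DDIT4, CHAC1 and INHBE.

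Recovered read totals were 18337577 in the VEM+BOR library, against 17370791 and 18031277 in untreated 1 and 2. Mitochondrially encoded genes held 4.23% of the normalised signal in VEM+BOR, against 5.4% and 5.26% in the untreated libraries. Across the 15606 genes, the SD of the log2 difference was 0.624 between VEM+BOR and untreated 1 and 0.654 between VEM+BOR and untreated 2, against 0.694 between the untreated libraries. The VEM+BOR library therefore lay nearer to each untreated library than these lay to each other. The untreated pair differed beyond counting error, the chi-square divided by its degrees of freedom being 40.9. Markers listed for a myeloid leukaemia line were present in every library, except KIT, which is not among the genes of the authors' table. Of the 6 tested, 3 lay above both untreated libraries, 1 lay between them, and 2, MPO and CEBPA, lay below both. CD33 stood at 1627 in VEM+BOR and at 1539 and 1366 in the untreated libraries. PTPRC stood at 4908 in VEM+BOR and at 3625 and 3370 in the untreated libraries. Markers of other lineages that passed the filter stood between 13.8 and 164 in VEM+BOR, apart from CD4, which monocytic cells also make, at 1211 in VEM+BOR and 1998 and 1392 in untreated cells. HBA1 was at 0 in VEM+BOR and at 2.87 and 1.07 in untreated cells, KRT8 was at 0 in VEM+BOR and at 0 and 3.2 in untreated cells, and the 4 B cell markers tested summed to 153 in VEM+BOR against 276 and 124 in untreated cells.

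VEM+BOR lay above both untreated libraries at 4705 genes, 30.1% of those tested, and below both at 4351, 27.9%. It lay between them at 6550, 42.0%. The same placing of an untreated library against the other 2 libraries gave larger shares, with untreated 2 above both at 37.3% and below both at 35.2%, and untreated 1 above both at 32.6% and below both at 36.9%. A value outside the other libraries is therefore common among single genes here. By distance, VEM+BOR lay at least 2-fold above the higher untreated library at 234 genes, 1.5%, and at least 2-fold below the lower one at 254 genes, 1.63%.

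Limma's moderated test on log2(value + 1), with Benjamini-Hochberg adjustment over all 15606 genes, called 30 genes at an adjusted p under 0.05, 0.192% of those tested. Of these, 27 were higher in VEM+BOR, 0.173% of genes, and 3 were lower, 0.0192%. At an unadjusted p under 0.05 it took in 469 genes, 3.01%, of which 343 were higher, 2.2%, and 126 lower, 0.807%. With 1 library against 2, the test has 1 residual degree of freedom and assumes that the VEM+BOR library varies like the untreated ones. A fit over all 6 libraries, in which the 2 BOR libraries add to the estimate of spread, called 0 genes at the adjusted threshold and 81 at an unadjusted p under 0.05. Without BOR 1 that fit called 43 higher and 3 lower genes, and without BOR 2 it called 40 and 3. Limma also called 0 genes with no filter on low values or without its trend. Below, passing the test means limma's adjusted threshold. Some genes that did not pass it, such as SLC7A11 and OLFM4, were called by edgeR and DESeq2 on recovered reads. The level of a gene is given below as a normalised read count, and a difference as VEM+BOR minus the untreated mean on the log2(value + 1) scale. In these bulk libraries, more cells of a kind and more RNA per cell cannot be told apart.

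**Figure D1:**
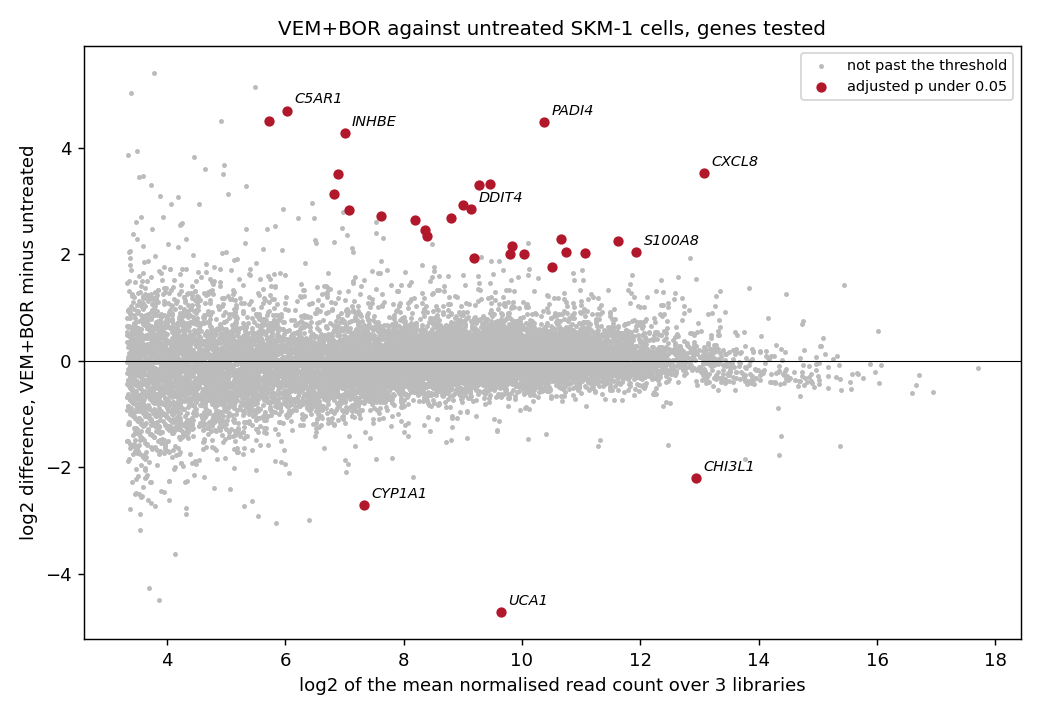
Each point is 1 of the 15606 genes tested, with the log2 of its mean normalised read count over 3 libraries on the x axis and its log2 difference, VEM+BOR minus untreated, on the y axis. The 30 genes past the threshold are red. Of these, 27 lie above 0 and 3 below, from 4.70 (C5AR1) to -4.72 (UCA1). Low genes with large differences, such as CEACAM1 (5.14) and CXCR3 (-4.50), did not pass.

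**Figure D2:**
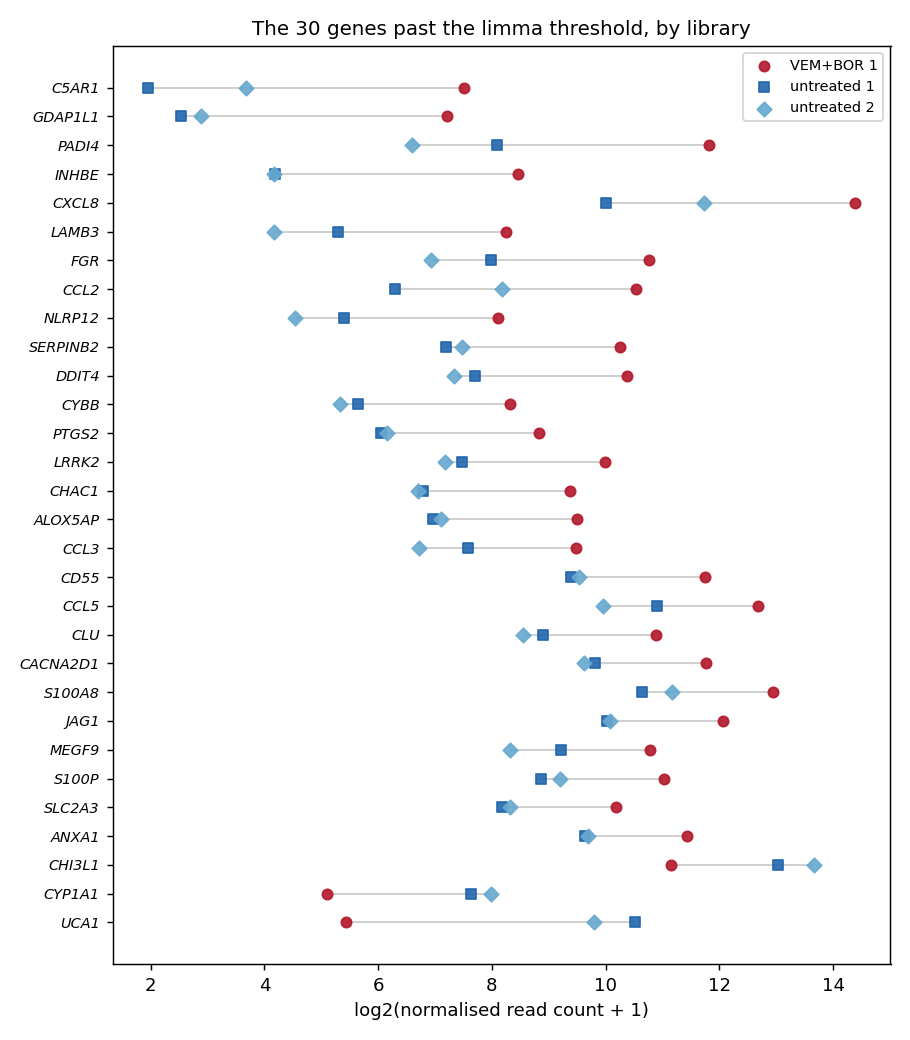
The 30 called genes, ordered by log2 difference, with the log2(normalised read count + 1) of the VEM+BOR library in red and of the untreated libraries in 2 blues. For every gene shown the red point lies outside both blue points, and the gap between the blue points is widest for genes such as CXCL8, CCL2, C5AR1 and PADI4.

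Targets of the integrated stress response were higher in VEM+BOR. INHBE, DDIT4 and CHAC1 rose by between 2.64 and 4.28 log2, and nearly the whole list of this response lay above both untreated libraries. INHBE, which encodes an activin subunit of the TGF-beta family, had 350.4 normalised reads in VEM+BOR and 17.2 and 17.1 in untreated cells. DDIT4, an inhibitor of the growth kinase complex mTORC1, had 1328 in VEM+BOR and 207.8 and 160.9 in untreated cells. CHAC1, an enzyme that degrades glutathione, had 665 in VEM+BOR and 109 and 103 in untreated cells. In all 3 genes the untreated libraries lay close together and VEM+BOR stood well above them. The differences were 4.28 ± 0.67 for INHBE (SE; limma adjusted p = 0.00615), 2.85 ± 0.42 for DDIT4 (adjusted p = 0.00307) and 2.64 ± 0.47 for CHAC1 (adjusted p = 0.0190). CHAC1 lies on chromosome 15 from 40952962 to 40956519 on the plus strand, and INHBE on chromosome 12 from 57452323 to 57459280.

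Of 32 listed stress response genes 30 were tested. Of these, 29 lay above both untreated libraries and none below both, against 30.1% and 27.9% of all genes. At least 2-fold above lay 13, against 1.5% of all genes. GDF15, counted in the 29 and in the 13, passed the filter only through VEM+BOR. The median difference was 0.999 against 0.01 over all genes. Only the 3 genes above passed limma's adjusted test. ATF4, the transcription factor of the response, had 15944 in VEM+BOR and 7049 and 10176 in untreated cells. SLC7A11, the cystine importer, had 1489 in VEM+BOR and 299.8 and 553 in untreated cells, with a difference of 1.87 that did not pass (limma adjusted p = 0.0778). STC2, a secreted glycoprotein, had 3376 in VEM+BOR and 920.3 and 1262 in untreated cells (limma adjusted p = 0.0881). ASNS, asparagine synthetase, had 195 in VEM+BOR and 68.0 and 55.4 in untreated cells. For each of these 4 genes VEM+BOR was above both untreated libraries.

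Lists of other stress pathways had smaller medians, a contrast that was not tested. The counts below stand beside 30.1% of all genes above both untreated libraries and 27.9% below. Of 26 genes of the endoplasmic reticulum unfolded protein response, 15 lay above both untreated libraries and 2 below, 0 were 2-fold apart, and the median difference was 0.21, or 0.40 against untreated 1 and 0.07 against untreated 2. HSPA5, the chaperone of that compartment, had 32649 in VEM+BOR, between 26036 and 37167 in untreated cells. DNAJB9, a co-chaperone, was outside them, with 645 in VEM+BOR and 351 and 349.5 in untreated cells. Of 20 cytosolic heat shock genes, 8 lay above and 2 below, with a median of 0.05. HSPA1A and HSPA1B, near-identical copies whose reads cannot be split with certainty, had 1915 and 841 in VEM+BOR, against 1698 and 788 in untreated 1 and 1637 and 697 in untreated 2. HSP90AA1, the inducible HSP90 chaperone, had 12969 in VEM+BOR, below 21317 and 27295 in untreated cells, and did not pass. The 43 proteasome genes had a median of -0.20, with 3 above both untreated libraries and 16 below. The 20 aminoacyl-tRNA synthetase genes, several of which are ATF4 targets, had 8 above and 3 below, with a median of 0.11. WARS and MARS, for tryptophan and methionine, lay farthest up: WARS had 1983 in VEM+BOR and 946 and 1369 in untreated cells, and MARS 5223 in VEM+BOR and 2732 and 3482 in untreated cells.

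The promoter of CHAC1 is shown because CHAC1 rose and the letters TGATGNAA, the composite element that C/EBP and ATF factors bind, occur in it. The searches read both strands of the 300 bases around each gene's start in RefSeq (GRCh38.p14), from 250 before it to 50 after it, in 10593 tested genes with an entry. TGATGNAA was found in 177 of these promoters, 1.67%, and in 3 of the 24 called genes that have one, CHAC1, NLRP12 and S100P. The window is chr15:40953221-40953520, plus strand, with the element in capitals, here as the reverse complement.
CHAC1: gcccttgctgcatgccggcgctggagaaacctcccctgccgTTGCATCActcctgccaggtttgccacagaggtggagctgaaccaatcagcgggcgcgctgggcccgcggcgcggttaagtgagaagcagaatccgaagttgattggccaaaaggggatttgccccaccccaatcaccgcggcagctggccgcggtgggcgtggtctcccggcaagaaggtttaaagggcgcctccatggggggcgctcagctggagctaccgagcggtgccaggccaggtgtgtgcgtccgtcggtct

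Letters of 3 further elements were read in the same promoters. The AP-1 letters TGANTCA occurred in 468, 4.42%, and in 3 called genes: CXCL8, PADI4 and SERPINB2. Those of CXCL8 and PADI4 are shown because these are the called genes with the highest level and with the second-smallest adjusted p. The CXCL8 window is chr4:73740319-73740618 and the PADI4 window chr1:17307947-17308246, both plus strand, with the AP-1 letters in capitals. The NF-kB site, written as GGG, 2 free bases, TT, 1 free base and CC, occurred in 717 promoters, 6.77%, and in 2 called genes, CD55 and CHAC1. Sites spelled otherwise, without GGG, are not counted, so a promoter without these letters, such as that of CXCL8, may still hold such a site. The letters of the aryl hydrocarbon receptor element, TNGCGTG, occurred in 773, 7.3%, and in 0 of the 24 called genes that have an entry. CYP1A1, a called target of that receptor, has no entry, so its promoter was not read. The motifs were searched separately, and a position can match more than one. A match is a run of letters in a window and says nothing of binding.
CXCL8: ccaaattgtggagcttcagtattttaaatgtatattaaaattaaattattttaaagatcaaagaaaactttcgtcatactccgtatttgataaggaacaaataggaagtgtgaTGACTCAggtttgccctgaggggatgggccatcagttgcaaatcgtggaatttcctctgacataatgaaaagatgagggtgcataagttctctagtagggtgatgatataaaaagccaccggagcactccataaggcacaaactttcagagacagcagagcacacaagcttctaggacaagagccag
PADI4: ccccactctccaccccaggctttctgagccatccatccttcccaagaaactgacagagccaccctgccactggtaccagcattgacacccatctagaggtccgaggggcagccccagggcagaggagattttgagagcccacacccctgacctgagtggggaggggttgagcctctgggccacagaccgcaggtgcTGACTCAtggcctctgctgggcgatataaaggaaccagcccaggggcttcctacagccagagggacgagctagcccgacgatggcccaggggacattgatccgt

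Genes of maturing neutrophils and monocytes were among those that rose. PADI4, which converts arginine to citrulline in histones and is made in neutrophils, had 3620 in VEM+BOR and 270.1 and 95.9 in untreated cells. VEM+BOR was more than 10-fold above the higher untreated library, and the untreated libraries themselves differed. The difference was 4.48 ± 0.49 (SE; limma adjusted p = 7.6e-05), and PADI4 lies on chromosome 1 from 17308195 to 17364004. FGR, a SRC-family kinase of myeloid cells, had 1740 in VEM+BOR and 250.9 and 120.4 in untreated cells, a difference of 3.32 ± 0.46 (limma adjusted p = 0.00224). CYBB, the catalytic subunit of the phagocyte NADPH oxidase, had 319 in VEM+BOR and 48.8 and 39.4 in untreated cells. NLRP12, a pattern-recognition protein of myeloid cells, had 276 in VEM+BOR and 41.2 and 22.4 in untreated cells. The differences were 2.83 for CYBB and 3.14 for NLRP12, with a limma adjusted p of 0.0472 for each.

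S100A8, S100P, ALOX5AP, PTGS2 and C5AR1 also rose. S100A8, a subunit of calprotectin, had 7849 in VEM+BOR and 1600 and 2289 in untreated cells, a difference of 2.04 (limma adjusted p = 0.0300). S100P, another calcium-binding protein of the family, had 2093 in VEM+BOR and 467 and 583 in untreated cells. S100A9, the partner of S100A8 in calprotectin, had 84370 in VEM+BOR and 55843 and 58928 in untreated cells, a difference of 0.56 that did not pass. C5AR1, the receptor for complement fragment C5a, passed the filter only through VEM+BOR, with 181 in VEM+BOR and 2.87 and 11.7 in untreated cells. Its difference was 4.70 ± 0.91 (SE; limma adjusted p = 0.0326). ALOX5AP, which presents arachidonic acid to 5-lipoxygenase, had 722 in VEM+BOR and 124.5 and 137 in untreated cells, and PTGS2, the inducible cyclooxygenase, had 451 in VEM+BOR and 65.1 and 70.3 in untreated cells. Their differences were 2.46 (limma adjusted p = 0.0239) and 2.72 (limma adjusted p = 0.0302). The rest of the 11 prostaglandin and leukotriene genes tested gave a median of 0.02 with these 2, so the list as a whole lay at the level of all genes.

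Of 9 NADPH oxidase genes, 4 lay above both untreated libraries and 3 below, close to the 30.1% and 27.9% of all genes, so that nothing is read from the counts, and the median was 0.13. NCF1, the organiser subunit, whose near-identical pseudogene copies make its counts uncertain, had 10029 in VEM+BOR and 4876 and 3525 in untreated cells. CYBA, the partner of CYBB, had 11731 in VEM+BOR, between 9604 and 11982 in untreated cells. Of 19 adaptors, Fc and pattern receptors tested out of 39 listed, 8 lay above, 5 below and 0 passed. TYROBP, the signalling adaptor of many myeloid receptors, had 147 in VEM+BOR and 23.9 and 15.98 in untreated cells. FCER1G, the Fc receptor gamma chain, had 259 in VEM+BOR and 94.8 and 78.9 in untreated cells. FCGR2B, the inhibitory Fc receptor, was at 0 in VEM+BOR and at 12.5 and 26.6 in untreated cells. It passed the filter only through the untreated libraries. CD36, 1 of the 8 above, passed it only through VEM+BOR. CSF1R, the receptor for macrophage colony-stimulating factor, had 19.7 in VEM+BOR, below 119.7 and 51.2 in untreated cells.

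Several late granule genes were higher in VEM+BOR, and none of them passed. Of 11 late granule and secreted defence genes tested out of 20 listed, 7 lay above both untreated libraries and 2 below, against 30.1% and 27.9% of all genes, with a median difference of 1.52. LTF and TCN1 passed the filter only through VEM+BOR, and with a mean of at least 50 required the median was 0.78. OLFM4, a glycoprotein of specific granules, had 294 in VEM+BOR and 40.2 and 42.6 in untreated cells, and its difference of 2.80 was just outside the threshold (limma adjusted p = 0.0521). CLEC5A, a lectin receptor of myeloid cells, had 206 in VEM+BOR and 26.8 and 36.2 in untreated cells. LTF, lactoferrin, had 41.3 in VEM+BOR and 4.79 and 4.26 in untreated cells, and TCN1, the vitamin B12 carrier of specific granules, had 81.7 in VEM+BOR and 9.58 and 7.46 in untreated cells. CHI3L1, a chitinase-like protein of the same list, lay below both untreated libraries. Because CHI3L1 is by far its most abundant member, the summed level of the list was 3485 in VEM+BOR and 8845 and 13483 in untreated cells, opposite to the median.

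Azurophil granule genes lay on both sides. Of 15 tested out of 19 listed, 7 lay above the untreated pair and 8 below it, against 30.1% and 27.9% of all genes. The distance was at least 2-fold at 1 and 6 genes, against 1.5% and 1.63% of all genes. DEFA3 and DEFA4, counted in the 8 and in the 6, passed the filter only through the untreated libraries. None of the 15 passed limma's adjusted test. The most abundant lay below. MPO, myeloperoxidase, had 5136 in VEM+BOR and 20169 and 16783 in untreated cells, a difference of -1.84 (limma adjusted p = 0.196; DESeq2 2.6e-04 on recovered reads). PRTN3, proteinase 3, had 17988 in VEM+BOR and 50900 and 58277 in untreated cells (limma adjusted p = 1.0; DESeq2 0.00282). AZU1, the antimicrobial protein azurocidin, had 10099 in VEM+BOR and 26395 and 27021 in untreated cells (DESeq2 adjusted p = 0.0180). ELANE, neutrophil elastase, had 7695 in VEM+BOR and 19698 and 35198 in untreated cells. In each of the 4 genes VEM+BOR was below the lower untreated library by more than 2-fold. Limma's SE was 0.53 for AZU1 and 0.36 for the less abundant ANXA1, although the untreated values of each lay close together. Limma and DESeq2 differ on these abundant genes, ELANE included, and the cause was not tested.

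The median difference of the 15 azurophil genes was -0.94. It was -1.38 without untreated 1, -0.49 without untreated 2, and 0.39 when a mean of at least 50 was required, since the list then loses low members such as DEFA4 and DEFA3, whose near-identical copy DEFA1 makes its counts uncertain. Members above both untreated libraries included SRGN, the proteoglycan core that packs granule proteases, with 16008 in VEM+BOR and 6700 and 7070 in untreated cells. BPI, a bactericidal protein, had 6097 in VEM+BOR and 4698 and 1969 in untreated cells. LYZ, lysozyme, had 48.2 in VEM+BOR and 24.9 and 10.7 in untreated cells. The list thus holds abundant granule proteins that lay lower beside others that lay higher.

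**Figure D3:**
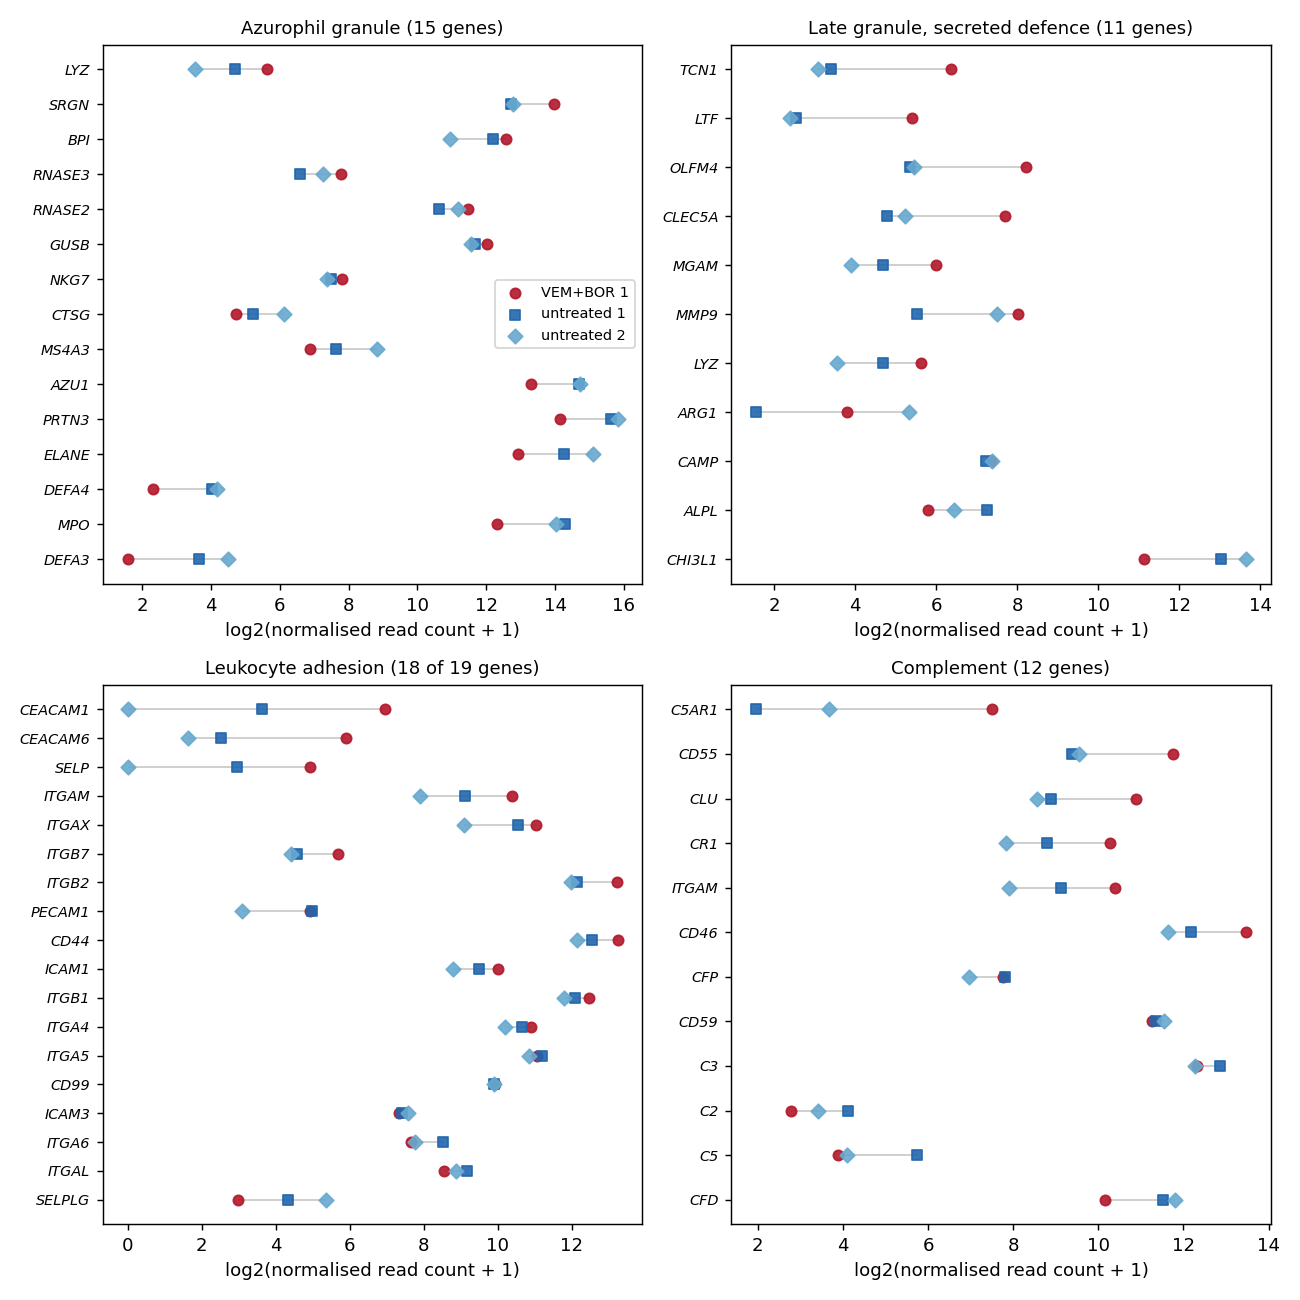
Tested genes of the azurophil granule, late granule, leukocyte adhesion and complement lists, ordered in each panel by log2 difference, with the log2(normalised read count + 1) of VEM+BOR in red and of the untreated libraries in 2 blues. The red point lies right of both blue points for 7 of 11 late granule genes and left of both for CHI3L1. Among 15 azurophil genes it lies right of both for 7 and left of both for 8. LTF, TCN1, CEACAM1, CEACAM6, SELP and C5AR1 passed the filter only through VEM+BOR. Low members such as DEFA3 and DEFA4 passed it only through the untreated libraries.

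Several surface adhesion genes were higher in VEM+BOR, without passing. Of 19 leukocyte adhesion genes tested, 13 lay above both untreated libraries and 4 below, against 30.1% and 27.9% of all genes, but CEACAM1, CEACAM6 and SELP passed the filter only through VEM+BOR. The median of 0.89 was 0.48 without untreated 2 and 0.53 with a mean of at least 50. Of the 19, 0 passed limma's adjusted test while 9 were higher and 1 lower at an unadjusted p under 0.05. ITGAM, the alpha chain of the integrin CD11b/CD18, had 1340 in VEM+BOR and 553 and 239 in untreated cells, and ITGB2, its beta chain, 9649 in VEM+BOR and 4541 and 4075 in untreated cells. CEACAM1, an adhesion receptor, had 124 in VEM+BOR and 11.5 and 0 in untreated cells. CD44, the hyaluronan receptor, had 9772 in VEM+BOR and 6042 and 4578 in untreated cells. SELPLG, the selectin ligand PSGL-1, was below both, with 6.89 in VEM+BOR and 19.2 and 40.5 in untreated cells. It passed the filter only through the untreated libraries.

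Complement regulators were among the rises. CD55, which breaks up C3 convertases on the cell's own surface, had 3425 in VEM+BOR and 669 and 741 in untreated cells, a difference of 2.28 ± 0.36 (SE; limma adjusted p = 0.00695). CLU, clusterin, a secreted chaperone that blocks the terminal complex, had 1881 in VEM+BOR and 476 and 375 in untreated cells, a difference of 2.15 (limma adjusted p = 0.0190). With C5AR1, 3 of 12 tested genes of this list of 21 rose, against 0.173% of all genes, though C5AR1 passed the filter only through VEM+BOR. Of the 12, 6 lay above both untreated libraries, all at least 2-fold (1.5% of all genes), and 4 lay below. The median was 0.96, or 0.61 against untreated 1, 1.30 against untreated 2 and 1.72 with a mean of at least 50. CR1, the receptor for C3b, had 1234 in VEM+BOR and 446 and 226 in untreated cells (limma adjusted p = 0.0778), and CD46, a cofactor for C3b cleavage, had 11362 in VEM+BOR and 4628 and 3193 in untreated cells. CFD, the protease factor D, was below both, with 1147 in VEM+BOR and 2942 and 3556 in untreated cells.

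Chemokine genes were higher in VEM+BOR, and 4 of 12 tested out of 28 listed rose, against 0.173% of all genes. CXCL8, interleukin 8, had 21393 in VEM+BOR and 1025 and 3387 in untreated cells. CCL2, which attracts monocytes, had 1489 in VEM+BOR and 77.6 and 287.7 in untreated cells. CCL5 had 6553 in VEM+BOR and 1904 and 986 in untreated cells. CXCL8 and CCL2 differed several-fold between the untreated libraries, with untreated 2 higher, while for CCL5 untreated 1 was higher. The differences were 3.52 ± 0.51 for CXCL8 (SE; limma adjusted p = 0.00307), 3.31 ± 0.55 for CCL2 (limma adjusted p = 0.0106) and 2.26 ± 0.41 for CCL5 (limma adjusted p = 0.0202). DESeq2 did not call CXCL8 or CCL2 (adjusted p = 0.929 for CXCL8). CXCL8 lies on chromosome 4 from 73740506 to 73743716 and CCL2 on chromosome 17 from 34255218 to 34257203.

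CCL3, whose near-identical copy CCL3L1 makes the split of reads uncertain, had 717 in VEM+BOR and 189.6 and 104 in untreated cells, a difference of 2.34 (limma adjusted p = 0.0472). CCL3L1 had 399 in VEM+BOR and 164 and 156 in untreated cells, and CCL4 had 379.9 in VEM+BOR and 129 and 81.0 in untreated cells. Of the 12 chemokines, 10 lay above both untreated libraries (30.1% of all genes), 6 at least 2-fold (1.5%), 1 lay below both by that margin, and the median difference was 1.53. Among 8 tested chemoattractant receptors of 16 listed, 5 lay above both untreated libraries and 1 below, against 30.1% and 27.9% of all genes. Of the 5, C5AR1 and PTAFR passed the filter only through VEM+BOR. CXCR3, the receptor below both, was at 0 in VEM+BOR and at 18.2 and 25.6 in untreated cells. It passed the filter only through the untreated libraries. TNF, a cytokine that the NF-kB pathway induces, had 82.7 in VEM+BOR and 4.79 and 6.39 in untreated cells, and did not pass (limma adjusted p = 0.177). It entered the test only through VEM+BOR.

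Among other secreted and surface genes, SERPINB2, which inhibits urokinase, had 1218 in VEM+BOR and 145 and 176 in untreated cells, a difference of 2.92 ± 0.43 (SE; limma adjusted p = 0.00307). It overlaps SERPINB10 on the same strand, which had 14.8 in VEM+BOR and 34.5 and 40.5 in untreated cells. PLAUR, the urokinase receptor, had 2063 in VEM+BOR and 526 and 738 in untreated cells (limma adjusted p = 0.0760). LRRK2, a kinase of monocytes and neurons, had 1016 in VEM+BOR and 176 and 143 in untreated cells, a difference of 2.67 (limma adjusted p = 0.00799). An overlapping antisense gene, AC079630.1, had 37.4 in VEM+BOR and 16.3 and 14.9 in untreated cells. JAG1, a Notch ligand, had 4300.1 in VEM+BOR and 1035 and 1082 in untreated cells, and its untreated libraries lay close together. CACNA2D1, an auxiliary calcium channel subunit, had 3461 in VEM+BOR and 894 and 789 in untreated cells. JAG1 and CACNA2D1 rose by 2.02 and 2.04, each with a limma adjusted p of 0.0190.

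LAMB3, a laminin chain, had 301 in VEM+BOR and 38.3 and 17.1 in untreated cells (3.50; limma adjusted p = 0.0300). SLC2A3, the high-affinity glucose carrier, had 1154 in VEM+BOR and 289 and 318 in untreated cells (1.92; limma adjusted p = 0.0475). ANXA1, annexin A1, a phospholipid-binding protein with anti-inflammatory action in neutrophils, had 2751 in VEM+BOR and 799 and 826 in untreated cells (1.76; limma adjusted p = 0.0475). MEGF9, a transmembrane protein, had 1746 in VEM+BOR and 593 and 319 in untreated cells (2.00; limma adjusted p = 0.0475). GDAP1L1 had 148 in VEM+BOR and 4.79 and 6.39 in untreated cells (4.51; limma adjusted p = 0.0338), and passed the filter only through VEM+BOR. CCL3, CYBB, NLRP12, SLC2A3, MEGF9 and ANXA1 lost the call with a pseudocount of 0.5, each at a limma adjusted p of 0.0522.

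UCA1, CHI3L1 and CYP1A1 fell. UCA1, a long noncoding RNA first described in bladder cancer, had 42.3 in VEM+BOR and 1468 and 888 in untreated cells, a difference of -4.72 ± 0.43 (SE; limma adjusted p = 7.7e-06). It was the largest fall among the genes called and the smallest adjusted p. CHI3L1, a secreted chitinase-like protein, had 2261 in VEM+BOR and 8367 and 12898 in untreated cells, a difference of -2.20 ± 0.43 (limma adjusted p = 0.0338). CYP1A1, a cytochrome P450 that the aryl hydrocarbon receptor induces, had 33.5 in VEM+BOR and 197 and 254 in untreated cells, a difference of -2.70 ± 0.53 (limma adjusted p = 0.0356). In all 3 genes VEM+BOR was below the lower untreated library by a wide margin. UCA1 lies on chromosome 19 from 15828206 to 15836326, CHI3L1 on chromosome 1 from 203178931 to 203186749 and CYP1A1 on chromosome 15 from 74719542 to 74725610.

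Some other targets of the aryl hydrocarbon receptor, the ligand-activated factor behind CYP1A1, lay lower too without passing. CYP1B1, a related P450, had 649 in VEM+BOR and 1444 and 1954 in untreated cells (limma adjusted p = 0.258), and AHRR, the receptor's repressor, had 387 in VEM+BOR and 917 and 985 in untreated cells (limma adjusted p = 0.346). AHR, the receptor itself, had 212 in VEM+BOR, above 126 and 192 in untreated cells, and TIPARP, another target, had 454 in VEM+BOR, above 379 and 432 in untreated cells. Of the 8 tested genes of this list, 4 lay below both untreated libraries and 2 above, against 27.9% and 30.1% of all genes. ALDH3A1, 1 of the 4, passed the filter only through the untreated libraries. The 8 genes had a median of -0.74, or -0.19 where a mean of at least 50 was required. Outside the lists, the protein-coding genes with a mean of at least 100 that lay farthest below both untreated libraries included VIT, with 75.8 in VEM+BOR and 209.7 and 574 in untreated cells, and ZNF385A, with 82.7 in VEM+BOR and 307 and 283 in untreated cells.

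**Figure D4:**
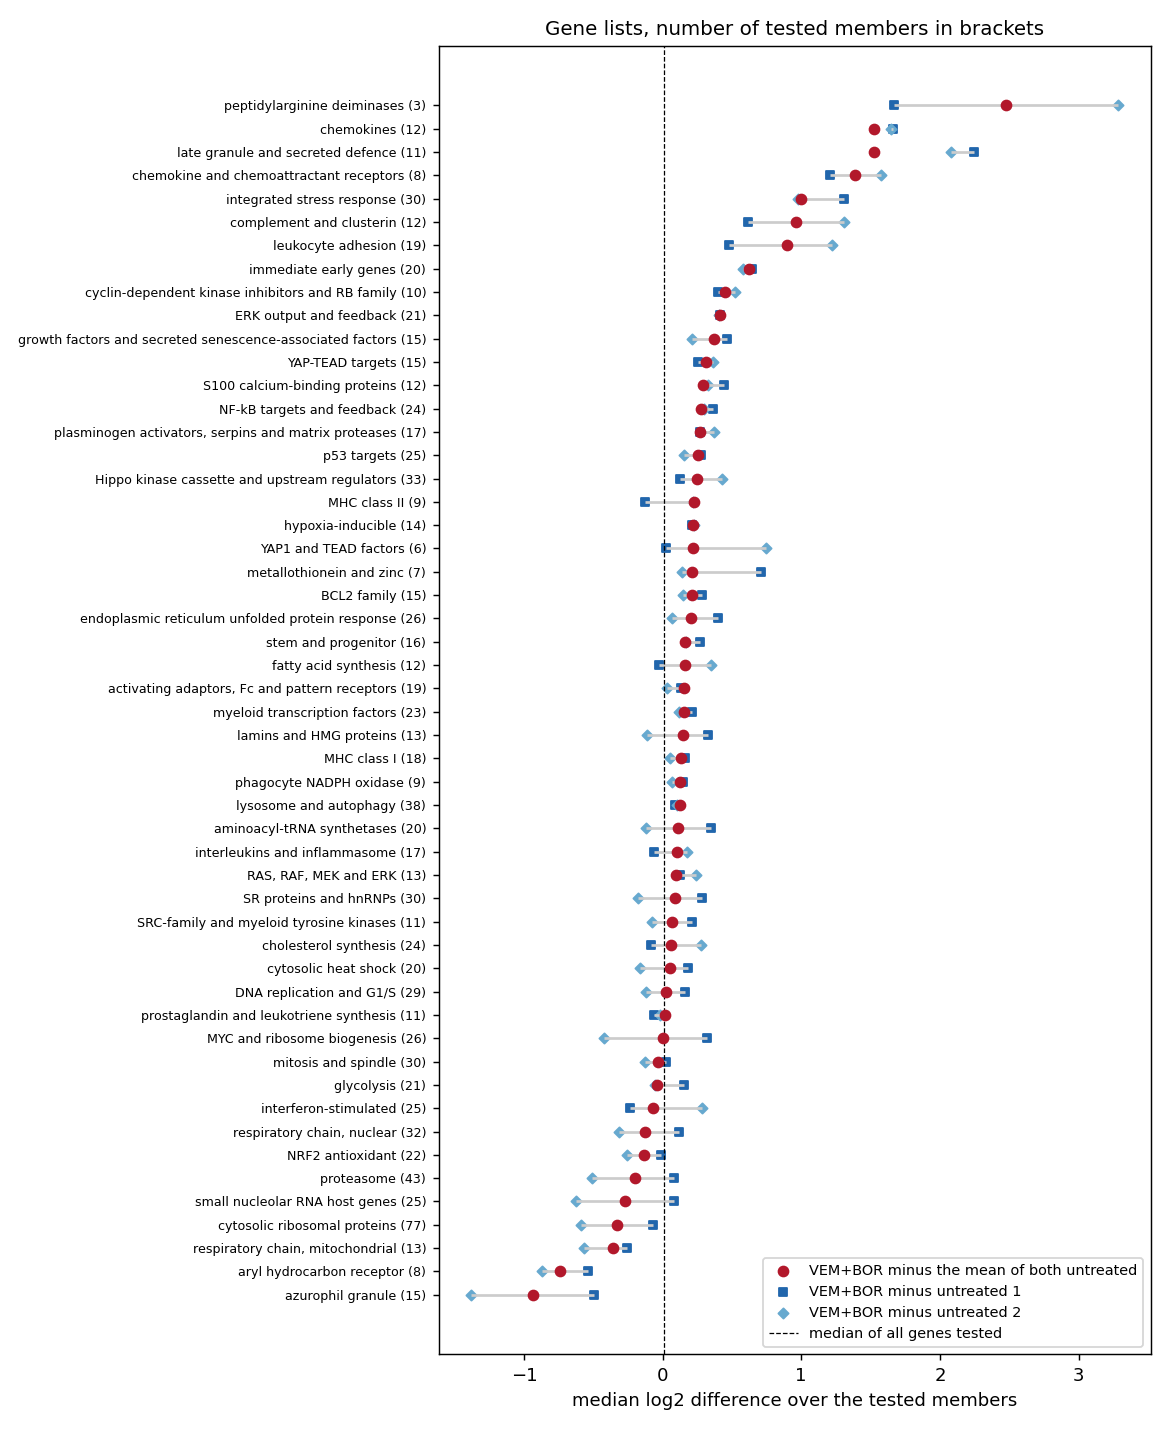
The median log2 difference of each gene list over its tested members on the x axis, as VEM+BOR minus the untreated mean in red and VEM+BOR minus each untreated library in 2 blues; the dashed line is the median of all genes. Chemokines stand at 1.53, the integrated stress response at 0.999 and azurophil granule genes at -0.94, the topmost value (2.48) is that of PADI3, 1 of 3 deiminases and past the filter only through VEM+BOR, and for ribosomal proteins, proteasome and host genes of small nucleolar RNAs the 2 untreated libraries give medians far apart.

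Lineage regulators had a median difference not far from that of all genes. Of 23 myeloid transcription factors tested, 12 were above the untreated pair and 5 below it, against 30.1% and 27.9% of all genes, with a median of 0.15. GATA2, a progenitor factor, had 6085 in VEM+BOR and 2522 and 2770 in untreated cells (limma adjusted p = 0.548). CEBPE, which drives specific granule genes, had 10913 in VEM+BOR and 6588 and 6729 in untreated cells, while CEBPA, which acts earlier, had 1389 in VEM+BOR, below 2023 and 3121 in untreated cells. SPI1, which encodes PU.1, had 7501 in VEM+BOR, between 5799 and 7856 in untreated cells. CD38, a surface enzyme counted in the stem and progenitor list, had 378 in VEM+BOR and 165 and 119 in untreated cells.

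The series title names senescence and the Hippo pathway, a kinase chain that keeps the coactivators YAP1 and TAZ out of the nucleus. Of 33 genes of the Hippo kinases and their upstream regulators, 17 lay above both untreated libraries and 6 below, against 30.1% and 27.9% of all genes, and 0 passed limma's adjusted test or an unadjusted p under 0.05. The median difference was 0.25, or 0.12 against untreated 1 and 0.43 against untreated 2. LATS1, a kinase of the chain, had 364 in VEM+BOR and 254 and 224 in untreated cells. YAP1 had 229 in VEM+BOR, above 219 and 99.1 in untreated cells, which differed from each other more than VEM+BOR did from untreated 1. Of 15 YAP-TEAD target genes tested out of 25 listed, 7 lay above, 1 below and none passed, with a median of 0.31. GADD45A, a growth arrest gene also counted as a p53 target, lay highest, with 2641 in VEM+BOR and 1402 and 1089 in untreated cells.

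Cell cycle genes were placed much like all genes, of which 30.1% lay above and 27.9% below both untreated libraries. Of 30 mitotic genes, 8 exceeded both untreated values and 11 were under both, with a median of -0.04, and of 29 DNA replication genes tested 8 lay above and 9 below, with a median of 0.02. MKI67, a proliferation marker, had 3848 in VEM+BOR, below 7625 and 5879 in untreated cells, whereas CDK1, the mitotic kinase, had 5580 in VEM+BOR, above 2730 and 2536 in untreated cells. Among cyclin-dependent kinase inhibitors, CDKN1A, the p53 target p21, had 1291 in VEM+BOR and 931 and 387 in untreated cells, and CDKN2A, the p16 locus, had 9363 in VEM+BOR and 6177 and 6908 in untreated cells. Of 10 tested inhibitors and RB family genes, 6 lay above and 2 below, with a median of 0.45, and none passed. LMNB1, a nuclear lamin, had 6710 in VEM+BOR, above 5501 and 5989.8 in untreated cells.

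Of 25 p53 targets tested, 13 lay above both untreated libraries and 5 below, against 30.1% and 27.9% of all genes. GDF15, 1 of the 13, passed the filter only through VEM+BOR. The median was 0.26, or 0.15 against untreated 2. SESN2, a stress-induced sestrin, had 1324 in VEM+BOR and 497 and 363 in untreated cells (limma adjusted p = 0.125). In the BCL2 family of cell death regulators, 9 of 15 lay above, with a median of 0.21. BCL2A1, an anti-apoptotic member, had 401 in VEM+BOR and 93.9 and 59.7 in untreated cells (2.40; limma adjusted p = 0.0778). MCL1, also anti-apoptotic, had 13631 in VEM+BOR and 6896 and 7841 in untreated cells, and the pro-apoptotic PMAIP1 and BCL2L11 had 1158 and 1016 in VEM+BOR, against 601 and 499.9 in untreated 1 and 649 and 587 in untreated 2.

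Genes downstream of the kinase that vemurafenib binds mostly lay higher in VEM+BOR, without passing. Of 21 genes of ERK output and feedback, 14 lay above both untreated libraries and 2 below, against 30.1% and 27.9% of all genes, with a median of 0.41, and none passed. PHLDA1, an ERK-induced gene, had 171 in VEM+BOR and 23.9 and 27.7 in untreated cells (limma adjusted p = 0.160). SPRY2, a feedback inhibitor, had 1401 in VEM+BOR and 801 and 1056 in untreated cells. BRAF had 370.1 in VEM+BOR and 328 and 313 in untreated cells, and the 13 genes of the RAS to ERK chain had a median of 0.10. Of 20 immediate early genes tested, 17 lay above both untreated libraries and 1 below, with a median of 0.62. EGR1, a zinc finger factor induced within minutes of a growth signal, had 735 in VEM+BOR and 220.3 and 117 in untreated cells (2.19; limma adjusted p = 0.0672). Of 24 NF-kB target genes 13 lay above and 1 below, with a median of 0.28. TNF, 1 of the 13, passed the filter only through VEM+BOR.

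For cytosolic ribosomal protein genes the untreated libraries differed more from each other than VEM+BOR differed from untreated 1, but not for mitochondrially encoded genes. All 13 mitochondrially encoded genes lay below both untreated libraries, against 27.9% of all genes, with a median of -0.36 and none past the test. Their median was -0.26 against untreated 1, and untreated 2 exceeded untreated 1 by a median of 0.17. These genes make up the lower mitochondrial share given above. MT-CO1, a cytochrome c oxidase subunit, had 199920 in VEM+BOR and 208910 and 231580 in untreated cells. Of 77 cytosolic ribosomal protein genes, 0 lay above both untreated libraries and 56 below, against 30.1% and 27.9% of all genes. Their median was -0.07 against untreated 1 and -0.59 against untreated 2, and untreated 2 exceeded untreated 1 by a median of 0.51. The 43 proteasome genes had medians of 0.08 and -0.51 against untreated 1 and 2, and 25 host genes of small nucleolar RNAs 0.08 and -0.62. MYC had 9479 in VEM+BOR, between 7629 and 11645 in untreated cells. In the MYC and ribosome biogenesis list, 21 of 26 genes lay between the untreated libraries, against 42.0% of all genes.

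Metabolic and antigen presentation lists lay near all genes. Glycolysis had a median of -0.04 over 21 genes, cholesterol synthesis 0.06 over 24, fatty acid synthesis 0.16 over 12, MHC class I 0.14 over 18 and interferon-stimulated genes -0.07 over 25. VEGFA, a hypoxia-inducible growth factor, had 3782 in VEM+BOR and 1637 and 1677 in untreated cells. MT2A, a zinc-binding metallothionein, had 25277 in VEM+BOR and 13073 and 16169 in untreated cells. Long intergenic noncoding genes lay slightly lower than protein-coding genes, with medians of -0.20 over 601 and 0.03 over 12768.

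The libraries of the single agents were placed on 1 scale with these 3 for the called genes, and VEM+BOR was not tested against them. On that scale PADI4 had 3642 in VEM+BOR, 1534 in VEM, 622 and 610 in BOR 1 and 2, and 270.2 and 95.3 in untreated cells. FGR had 1751 in VEM+BOR, 682 in VEM, 453 and 181 in BOR, and 251 and 119.6 in untreated cells. For both genes VEM+BOR was the highest of the 6 libraries and VEM the next. SERPINB2 had 1225 in VEM+BOR, 243 in VEM, 679.5 and 189.7 in BOR and 145 and 175 in untreated cells, so that BOR 1 came next there.

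The stress genes had another order. DDIT4 had 1336 in VEM+BOR, 1898 in VEM, 203 and 25144 in BOR 1 and 2, and 208 and 159.8 in untreated cells. CHAC1 had 669 in VEM+BOR, 934 in VEM, 154 and 3245 in BOR and 109 and 103 in untreated cells. INHBE had 353 in VEM+BOR, 491 in VEM, 28.0 and 741 in BOR and 17.2 and 16.9 in untreated cells. In all 3 genes VEM exceeded VEM+BOR, and BOR 1 and BOR 2 lay on either side of both. CXCL8 had 21525 in VEM+BOR, 8379 in VEM, 2605 and 49068 in BOR and 1025 and 3364 in untreated cells. UCA1 had 42.6 in VEM+BOR, 153 in VEM, 280.8 and 1462 in BOR and 1469 and 882 in untreated cells. CYP1A1 had 33.7 in VEM+BOR, 58.7 in VEM, 159 and 108 in BOR and 197 and 252 in untreated cells, with VEM+BOR the lowest library for both genes.

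**Figure D5:**
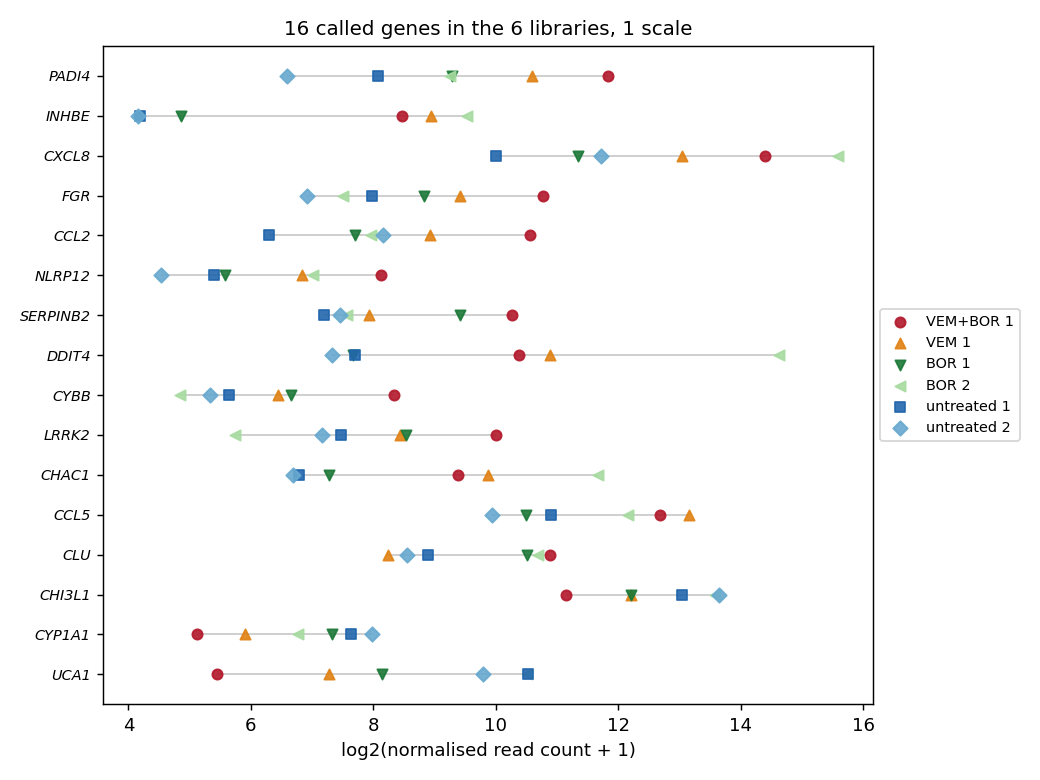
Levels of called genes in all 6 libraries on 1 scale, as log2(normalised read count + 1), with 1 point per library on the x axis for each of 16 called genes. VEM+BOR is the highest library for PADI4 and FGR and the lowest for UCA1 and CYP1A1, while BOR 2 is the highest for DDIT4, CHAC1, INHBE and CXCL8.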

How the data were processed

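Per the labels' protocols, mRNA was selected with poly-T beads and read as 150 bp pairs on a NovaSeq instrument. No strand marking is named, so antisense and overlapping genes share reads that cannot be separated. The submitters' processing notes list edgeR 3.22.5, DESeq2 1.20.0, featureCounts 1.5.0-p3, HISAT2 2.0.5 and CASAVA without roles. The sources used here do not give the build. Gene coordinates equal those of GENCODE 29 (GRCh38) for 15588 of 15606 tested genes. The values are the signal the authors deposited, read counts that the authors divided by a library factor. The deposited log2 fold changes and deposited p-values were used only for counts: the authors' deposited table has 48 genes higher and 12 lower at adjusted p under 0.05, of which 27 are called here.

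All values came out as whole reads within 0.001 (100% of them), and edgeR 4.0.16 and DESeq2 1.42.0 on those reads were alternatives. The main test was limma 3.58.1 (R 4.3.3), with its trend of variance on level, on log2(value + 1), 1 library against 2, two-sided, for a mean of at least 10. The differences understate changes of low genes, and a gene low in untreated cells (under 10) passes the filter only where VEM+BOR is high, and the reverse, so counts over tested list members are descriptions. The members and gene lists were chosen with earlier results of these data known. Named genes were all called genes, the 12 protein-coding genes farthest above and below with a mean of at least 100, up to 4 members of each list with the largest difference, and a fixed set; further members, such as HSPA5, ITGB2, SRGN and CD46, were chosen after their values were seen. Some genes that the rule takes in were left out of the text. The 6-library scale used median-of-ratios factors. The steps were tested on simulated data. Figures used matplotlib 3.10.9.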

Additional observations from a re-analysis of the deposited data

How the results depend on the processing

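The 27 higher and 3 lower calls became 0 and 0 with no filter on low values, without the trend and in the 6-library fit (1077, 582 and 81 genes at an unadjusted p under 0.05). They became 74 and 11 with edgeR, 52 and 12 with DESeq2, 74 and 14 with library totals as scaling and 47 and 7 with TMM scaling. Calls shared with the 30 were 30 of 85 in edgeR, 28 of 64 in DESeq2, 30 of 88 with totals and 30 of 54 with TMM. Leaving out 1 library of the 6-library fit gave 0 to 43 higher and 0 to 3 lower calls: 0 and 0 without either untreated library, 43 and 3 without BOR 1, 40 and 3 without BOR 2. With no filter, 7427 genes lay above both untreated libraries and 6783 below, 1180 and 1155 at least 2-fold; the count 2-fold below was 49 with a mean of at least 50 and 88 with a pseudocount of 8. With 1 untreated library left out, 7672 to 8288 genes lay above and 7318 to 7934 below, 422 to 961 and 518 to 999 at least 2-fold. MYC turned from 0.0082 to -0.00544 (totals), -0.0523 (edgeR) and -0.0355 (DESeq2), and CD79B from -0.02 to 0.00018 (pseudocount 0.5); neither was called. The cause was not tested. No paired analysis was possible because VEM+BOR is 1 library and its number pairs no other. Low genes rest on few reads and are imprecise.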
